A study of Mus musculus with 23 samples.

Results

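Genomic sites that carried both H3K27ac and H3K27me3 were examined in Ebf2-EGFP+ cells sorted by FACS from the mouse cerebral cortex at E13.5. A peak counted as overlapping when it shared at least 1 bp with a peak of the other mark. A mark was assigned to a transcription start site (TSS) if any of its peaks came within 5 kb. By these rules 2582 of 6721 H3K27me3 peaks overlapped an H3K27ac peak, 2544 of 102877 H3K27ac peaks overlapped an H3K27me3 peak, and 1840 of 21938 protein-coding TSS had both marks. The cells came from embryos of the strain Tg(Ebf2-EGFP)FB58Gsat, whose transgene places EGFP under Ebf2 control. The E13.5 sort is a mixture of Cajal-Retzius (CR) neurons, which keep the reporter, and those subplate neurons that have not yet lost it. Ebf2-EGFP+ cells were also sorted at E11.5, when they are mainly preplate neurons, and at E15.5, when CR neurons prevail. Progenitors make up most of the Ebf2-EGFP- cells, which were taken at E11.5, and all groups had the same strain. At E13.5 each mark had 2 ChIP libraries, and 2 input libraries served the stage, but a single peak list was deposited for each mark. There was therefore no replicate list, no measure of peak height and no known depth, and no comparison in the text carries a test. Shares are given with 95% Wilson confidence intervals (CI), which cover the counting of peaks or genes only.

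H3K27ac and H3K27me3 are alternative modifications of the same lysine of histone H3. CBP and p300 acetylate it at active promoters and enhancers. Polycomb repressive complex PRC2 trimethylates it at silent genes, above all at CpG-rich promoters of developmental regulators, and PRC1 reads the methylated form. One histone tail cannot hold both modifications, but neighboring nucleosomes, both alleles of a gene or different cells of a sample can. In sorted cells measured in bulk, these cases cannot be told apart. CR neurons are early-born neurons of cortical layer 1 that secrete Reelin.

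The sequences below show what both marks covered at genes on which the results turn. Each is the H3K27me3 peak, or a stretch of it of at most 300 bases outside annotated UTRs, on the plus strand of mm10. Capitals mark bases that an H3K27ac peak also covered, and lower case marks bases under H3K27me3 alone. The first set holds peaks at transcription factor genes and at the vesicular GABA transporter gene. Ebf3, a marker of CR neurons, had both marks on its promoter. Dlx6 and Slc32a1 belong to GABAergic neurons, Zic2 to the midline and cortical hem, Pax5 to the midbrain boundary and B cells, Tbx21 to T cells, and Hoxa11 to the posterior trunk. The study also names ZIC2 as a marker of CR neurons. The Hoxa11 peak also lay within 5 kb of Hoxa10.
Ebf3 (chr7:137314487-137314691, promoter): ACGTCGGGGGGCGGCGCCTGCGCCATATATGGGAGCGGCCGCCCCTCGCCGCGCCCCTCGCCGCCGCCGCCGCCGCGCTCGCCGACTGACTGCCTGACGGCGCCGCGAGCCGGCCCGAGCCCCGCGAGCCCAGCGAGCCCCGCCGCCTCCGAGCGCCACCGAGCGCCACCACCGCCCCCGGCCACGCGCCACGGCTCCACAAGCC
Dlx6 (chr6:6863715-6863945, promoter): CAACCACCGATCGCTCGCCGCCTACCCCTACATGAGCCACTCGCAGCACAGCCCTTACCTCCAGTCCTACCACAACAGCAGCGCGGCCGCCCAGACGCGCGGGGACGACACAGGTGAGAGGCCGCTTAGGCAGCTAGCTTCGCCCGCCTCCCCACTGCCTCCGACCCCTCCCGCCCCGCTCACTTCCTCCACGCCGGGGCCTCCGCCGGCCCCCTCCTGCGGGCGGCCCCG
Slc32a1 (chr2:158614623-158614879, exon): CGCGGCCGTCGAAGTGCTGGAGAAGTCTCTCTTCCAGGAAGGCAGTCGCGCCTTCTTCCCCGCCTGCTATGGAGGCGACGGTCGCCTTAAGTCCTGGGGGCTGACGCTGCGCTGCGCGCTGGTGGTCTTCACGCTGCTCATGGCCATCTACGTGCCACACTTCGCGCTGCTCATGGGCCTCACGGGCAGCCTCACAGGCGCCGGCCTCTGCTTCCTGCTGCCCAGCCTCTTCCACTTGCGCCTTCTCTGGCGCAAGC
Zic2 (chr14:122475896-122476102, promoter): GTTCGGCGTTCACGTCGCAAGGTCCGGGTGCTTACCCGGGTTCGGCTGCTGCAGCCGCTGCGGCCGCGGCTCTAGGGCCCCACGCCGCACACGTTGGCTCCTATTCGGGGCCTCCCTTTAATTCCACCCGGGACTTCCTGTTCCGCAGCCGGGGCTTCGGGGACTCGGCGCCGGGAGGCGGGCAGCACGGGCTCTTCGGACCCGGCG
Pax5 (chr4:44710875-44711088, promoter): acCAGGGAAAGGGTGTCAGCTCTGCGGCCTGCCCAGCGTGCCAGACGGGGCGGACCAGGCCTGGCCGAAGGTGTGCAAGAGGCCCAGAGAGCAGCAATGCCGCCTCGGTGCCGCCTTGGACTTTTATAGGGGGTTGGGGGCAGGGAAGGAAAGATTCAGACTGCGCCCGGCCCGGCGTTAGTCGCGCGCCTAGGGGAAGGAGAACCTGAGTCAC
Tbx21 (chr11:97114743-97115006, promoter): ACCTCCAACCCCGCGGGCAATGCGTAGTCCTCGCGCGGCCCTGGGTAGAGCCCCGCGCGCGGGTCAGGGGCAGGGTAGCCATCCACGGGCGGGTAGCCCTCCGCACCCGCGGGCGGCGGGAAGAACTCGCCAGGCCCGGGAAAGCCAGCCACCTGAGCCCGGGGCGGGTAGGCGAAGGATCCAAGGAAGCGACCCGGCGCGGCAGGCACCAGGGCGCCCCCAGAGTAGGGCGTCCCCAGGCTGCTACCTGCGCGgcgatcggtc
Hoxa11 (chr6:52245129-52245428, promoter): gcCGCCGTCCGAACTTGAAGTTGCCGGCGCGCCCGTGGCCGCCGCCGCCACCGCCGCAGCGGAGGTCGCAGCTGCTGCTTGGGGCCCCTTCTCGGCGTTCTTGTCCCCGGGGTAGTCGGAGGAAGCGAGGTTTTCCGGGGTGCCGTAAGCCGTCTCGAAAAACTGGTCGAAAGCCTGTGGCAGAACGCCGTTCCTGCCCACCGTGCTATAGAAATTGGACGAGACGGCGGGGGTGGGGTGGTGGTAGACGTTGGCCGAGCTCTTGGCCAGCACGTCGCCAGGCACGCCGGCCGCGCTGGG
The second set shows both marks at genes of other roles. Elavl3 encodes a neuronal RNA-binding protein and Jag2 a Notch ligand.
Elavl3 (chr9:22050533-22050685, intron): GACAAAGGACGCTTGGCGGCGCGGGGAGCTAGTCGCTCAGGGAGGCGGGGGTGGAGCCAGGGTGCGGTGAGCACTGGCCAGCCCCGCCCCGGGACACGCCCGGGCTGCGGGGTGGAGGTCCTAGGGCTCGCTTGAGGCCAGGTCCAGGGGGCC
Jag2 (chr12:112928559-112928706, intron): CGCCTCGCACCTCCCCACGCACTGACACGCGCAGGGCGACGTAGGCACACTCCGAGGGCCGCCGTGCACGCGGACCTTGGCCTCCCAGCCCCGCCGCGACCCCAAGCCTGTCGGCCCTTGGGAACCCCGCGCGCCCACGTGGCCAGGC
The third set is for contrast. The H3K27me3 peaks of the CR genes Ebf2, Slit1 and Ppp2r2c met no H3K27ac peak, and the peak on chromosome 9 belongs to a cluster in repeat sequence where nearly every base under H3K27me3 was also under H3K27ac. The chromosome 9 peak lay upstream of the TSS of Gm10717, within 5 kb, so the exon named with it belongs to another annotated gene. Fcgr3 encodes an Fc receptor of immune cells and headed the ranking of genes outside repeats. The sequences other than those of Ebf3 and Gm10717 were chosen after the values were seen.
Ebf2 (chr14:67230433-67230616, intergenic): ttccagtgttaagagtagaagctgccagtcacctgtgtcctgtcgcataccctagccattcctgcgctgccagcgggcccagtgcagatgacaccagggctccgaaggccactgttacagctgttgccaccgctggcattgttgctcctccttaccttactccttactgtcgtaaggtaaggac
Slit1 (chr19:41743121-41743327, promoter): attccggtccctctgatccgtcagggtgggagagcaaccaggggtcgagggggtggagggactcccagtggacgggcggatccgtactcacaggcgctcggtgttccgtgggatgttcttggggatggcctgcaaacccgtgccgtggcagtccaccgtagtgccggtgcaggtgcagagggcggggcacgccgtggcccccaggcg
Ppp2r2c (chr5:36868257-36868412, promoter): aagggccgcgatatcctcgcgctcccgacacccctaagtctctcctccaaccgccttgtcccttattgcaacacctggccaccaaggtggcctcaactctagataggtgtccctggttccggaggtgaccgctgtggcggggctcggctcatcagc
Gm10717 (chr9:3020472-3020597, exon): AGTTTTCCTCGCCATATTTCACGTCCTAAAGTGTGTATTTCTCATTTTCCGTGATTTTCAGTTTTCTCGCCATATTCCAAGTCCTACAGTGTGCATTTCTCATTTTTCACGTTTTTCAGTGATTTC
Fcgr3 (chr1:171065021-171065283, promoter): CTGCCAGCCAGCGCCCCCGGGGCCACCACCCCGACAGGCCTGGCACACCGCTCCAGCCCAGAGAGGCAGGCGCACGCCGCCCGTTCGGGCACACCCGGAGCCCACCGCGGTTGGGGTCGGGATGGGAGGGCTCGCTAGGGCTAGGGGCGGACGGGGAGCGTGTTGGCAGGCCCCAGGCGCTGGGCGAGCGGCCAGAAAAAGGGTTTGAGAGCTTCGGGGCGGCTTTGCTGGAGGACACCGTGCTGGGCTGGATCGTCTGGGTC
The shown stretch of Ebf3 held 39 CG dinucleotides in 205 bases at a GC content of 82.4%. That of Zic2 held 27 in 207 bases (71.5% GC), and that of Tbx21 held 32 in 264 bases (74.6% GC). The peak of Ebf2 held 6 CG in 184 bases at 56.0% GC, and the chromosome 9 peak held 5 in 126 bases at 37.3% GC.

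The marks met at a large share of the shorter list. Of the 6721 H3K27me3 peaks, 38.4% (CI 37.3 to 39.6) overlapped an H3K27ac peak, which was 2.47% (CI 2.38 to 2.57) of the H3K27ac list. The H3K27ac peaks covered 0.878% of the genome and held 32.1% of the bases under H3K27me3. Of the 2582 overlapping H3K27me3 peaks, 1055 (40.9%, CI 39.0 to 42.8) lay inside an H3K27ac peak. Another 1416 (54.8%) overlapped it in part, and 111 (4.30%) contained a whole H3K27ac peak. The shared stretch had a median of 126 bp (interquartile range 96.0 to 167 bp), and the median H3K27me3 peak was covered over 89.8% of its length. Only 14 H3K27me3 peaks met 2 or more H3K27ac peaks, and 48 H3K27ac peaks met 2 or more H3K27me3 peaks. By chromosome the overlapping share ran from 33.1% on chromosome 1 to 44.1% on chromosome 8, leaving aside chromosome Y with its single H3K27me3 peak, which overlapped. Sites where both lists met were narrow. The H3K27me3 peaks outside the overlap were narrower still, at a median of 139 bp against 161 bp for overlapping ones. Narrow peaks were thus a trait of the whole H3K27me3 list, whereas this mark is known above all for broad domains.

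Overlapping peaks were wider and richer in CG than the rest of their lists. Overlapping H3K27me3 peaks had a median width of 161 bp, against 139 bp for the other 4139. Their median GC content was 62.7% against 56.1%, with 4.55 against 1.78 CG dinucleotides per 100 bp. Overlapping H3K27ac peaks measured 259 bp against 182 bp, with 62.2% against 56.4% GC and 4.41 against 2.05 CG per 100 bp. A wider peak meets other peaks more readily under a 1 bp rule, and GC content can affect read recovery, and the part of either in the overlap was not tested. The E-box CAGCTG lay within 100 bp of the centre of 16.9% of overlapping and 17.2% of other H3K27me3 peaks, and of 16.4% and 17.2% of the H3K27ac peaks. This motif reads the same on either strand, and its share differed between the classes of a list by less than 1 percentage point.

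The overlap was concentrated near genes. A promoter, defined as sequence within 1 kb of a protein-coding TSS, held the centre of 27.8% (CI 26.1 to 29.6) of overlapping H3K27me3 peaks and of 9.98% (CI 9.10 to 10.9) of the others. Exons held 24.4% against 18.7%, introns 28.1% against 41.4% and intergenic sequence 19.7% against 29.9%. Promoters make up 1.56% of the genome, so promoters were above their genomic share in both classes. For H3K27ac the promoter share was 27.8% of overlapping peaks and 10.2% of the other 100333. The median distance of an overlapping H3K27me3 peak to the nearest protein-coding TSS was 8.63 kb, against 21.5 kb for the others. Read the other way, 63.5% (CI 60.6 to 66.2) of the 1131 promoter H3K27me3 peaks overlapped H3K27ac, followed by 44.8% of exonic, 29.8% of intronic and 29.1% of intergenic peaks. The intervals of intronic and intergenic peaks overlapped each other.

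The overlap also followed CG content outside promoters. Peaks were divided into 4 bins of CG content. In the lowest bin 21.1% (CI 19.2 to 23.1) of H3K27me3 peaks overlapped H3K27ac, and in the highest 66.1% (CI 63.8 to 68.4). Among intergenic peaks the same bins gave 19.2% (134 of 699) and 73.3% (126 of 172). Among promoter peaks they gave 40.0% (16 of 40) and 68.3% (589 of 862). The share also rose with width, from 27.9% in the narrowest of 4 bins to 53.4% in the widest. Thus intergenic peaks of high CG content overlapped H3K27ac about as often as promoter peaks of high CG content, with intervals of 66.2 to 79.3 and 65.1 to 71.3.

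**Figure D1:**
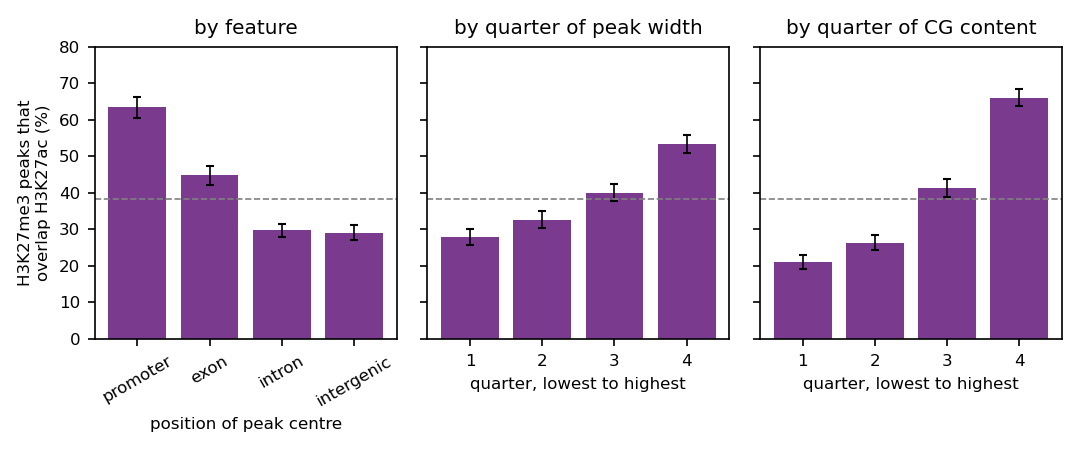
Percentage of the E13.5 H3K27me3 peaks that overlapped an H3K27ac peak, by position of the peak centre and by 4 bins of peak width and of CG dinucleotides per 100 bp. Bars show the share, error bars the 95% Wilson interval, and the dashed line the 38.4% of all peaks. The share is highest for promoter peaks (63.5%) and for the bin richest in CG (66.1%).

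Of the 4139 H3K27me3 peaks that did not overlap H3K27ac, 29.3% lay within 1 kb of an H3K27ac peak, 63.4% within 5 kb and 96.5% within 50 kb, with a median gap of 2.79 kb. Over all H3K27me3 peaks, overlapping ones included with a gap of 0, the shares were 56.4%, 77.5% and 97.9% and the median 0.498 kb. The opposite gap, from an H3K27ac peak to the nearest H3K27me3 peak, had a median of 68.8 kb. Over all peaks the H3K27me3 to H3K27ac gap had a median of 6.27 kb among the Ebf2-EGFP+ cells of E11.5, while among the Ebf2-EGFP- cells of that stage it was 415 kb. These gaps move with the length of the H3K27ac list, which held 37055 and 1386 peaks in those cells, and the part of list length was not tested across cell groups. With the E13.5 H3K27ac list cut to its 6721 widest peaks, the overlapping share was 8.72%, and with a reciprocal overlap of at least 50% it was 16.0%.

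**Figure D2:**
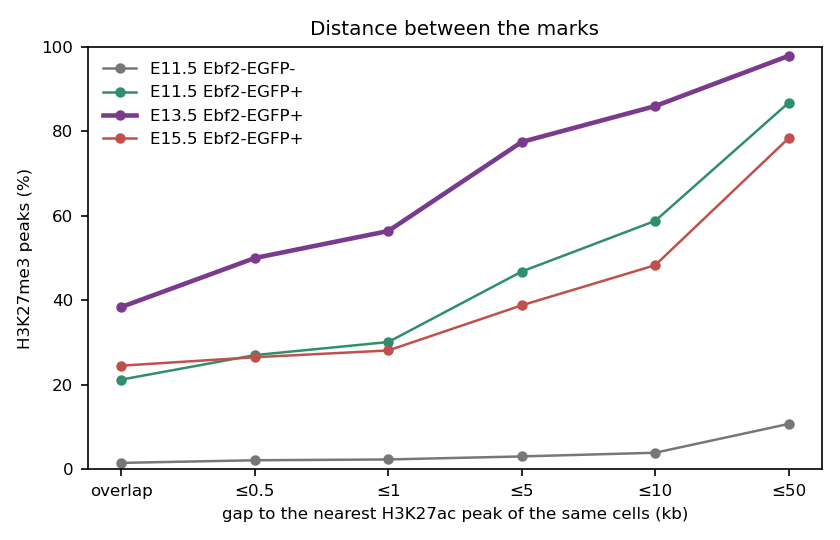
Cumulative percentage of H3K27me3 peaks (vertical axis) that overlapped an H3K27ac peak of the same cells or lay within the given gap of one (horizontal axis, kb), with 1 line per cell group. The E13.5 line starts at 38.4% and reaches 97.9% within 50 kb, above the other 3 groups at every gap.

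Among the pairs with the longest shared stretch, those farthest from a protein-coding TSS lay in a repeat, an intron and a lincRNA gene. Of the 50 pairs of peaks with the longest shared stretch, the 5 farthest from a protein-coding TSS were named by rule. One lay at chr2:46281827-46282230, intergenic and 1164633 bp from the TSS of Zeb2, with all of its bases soft-masked as repeat. Another lay in an intron of Celf2 at chr2:6871985-6872361. The other 3 lay on chromosome 17 between 39843031 and 39845629 in exons of Gm26917, a lincRNA gene beside the annotated rRNA CT010467.1. The peak at chr17:39843649-39844881 was the widest H3K27me3 peak of the overlapping class, at 1233 bp, all of it within an H3K27ac peak of 1855 bp. This site was also in the H3K27ac lists of all 3 other cell groups and in 2 of their 3 H3K27me3 lists.

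Co-marked peaks were scattered, with a few dense clusters. They fell into 1983 windows of 100 kb, and 1621 of these held a single overlapping H3K27me3 peak. In the densest window, chr9:3000001-3100000, all 45 H3K27me3 peaks overlapped H3K27ac and all 45 had at least 50% of their bases soft-masked. It holds the TSS of 9 predicted genes, among them Gm10717, which had 15 H3K27me3 and 17 H3K27ac peaks within 5 kb. The window held H3K27ac peaks in every other cell group (45, 10 and 50 at E11.5 in Ebf2-EGFP- cells, E11.5 in Ebf2-EGFP+ cells and E15.5, in that order). The next was chr8:123500001-123600000, with 33 overlapping peaks of which 28 were mostly repeat. The window chr1:171000001-171100000 around Fcgr4 and Fcgr3, which encode Fc receptors of immune cells, held 17 overlapping peaks and none that was mostly repeat. The Hoxa cluster window held 6. The part of repeat sequence in these clusters was not tested. Without the 15 windows of 5 or more overlapping peaks, 36.8% of H3K27me3 peaks overlapped H3K27ac.

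At TSS, H3K27me3 was seldom found without H3K27ac. Of the 21938 protein-coding TSS, 1840 had both marks (8.39%, CI 8.03 to 8.76), 11528 had H3K27ac only (52.5%), 203 had H3K27me3 only (0.925%) and 8367 had neither. H3K27ac was at 60.9% of all TSS and H3K27me3 at 9.31%. Of the 2043 TSS with H3K27me3, 90.1% (CI 88.7 to 91.3) also had H3K27ac, against 57.9% (CI 57.3 to 58.6) of TSS without H3K27me3. Conversely H3K27me3 was at 13.8% of TSS with H3K27ac and at 2.37% of those without. When only the 6721 widest H3K27ac peaks were kept, those of 424 bp or more, the first pair of shares became 24.5% and 8.61%, and 2.28% of all TSS had both marks. With a window of 1 kb in place of 5 kb, 4.36% had both. The peaks of both marks overlapped each other at 1092 of the 1840 TSS (59.3%, CI 57.1 to 61.6). At 420 TSS (22.8%) they lay up to 1 kb apart, and at 328 (17.8%) farther.

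The TSS with both marks had more H3K27ac than those with H3K27ac only. They had a median of 555 bp under H3K27ac within 5 kb (interquartile range 337 to 829), against 343 bp, and a widest H3K27ac peak of 315 bp against 248 bp. Their H3K27me3 covered 164 bp, against 141 bp at TSS with H3K27me3 only. Most, 1624 of 1840, had a single H3K27me3 peak, and 46 had 3 or more. The 1840 TSS drew on 1853 distinct H3K27me3 peaks, and 495 TSS shared a peak with another of them, so neighboring genes are not independent. The ratio of observed to expected CpG around the TSS was 0.686 at the median, against 0.664 for H3K27ac only and 0.257 for neither. In the lowest of 4 bins of this ratio both marks were at 3.03% of TSS, in the next at 7.57%, in the third at 631 of 5484 TSS and in the highest at 628 of 5485 (11.4%), so the upper bins were level.

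Both marks peaked just downstream of the TSS. At TSS with both marks 67.9% of H3K27me3 centres and 64.2% of H3K27ac centres lay downstream, at median distances of 981 and 1394 bp from the TSS. In the first 0.5 kb downstream there were 32.5 H3K27me3 peaks and 50.2 H3K27ac peaks per 100 TSS. In the first 0.5 kb upstream there were 10.9 and 22.0. The H3K27ac peak was the nearer to the TSS at 52.1% of genes (CI 49.8 to 54.4) and the H3K27me3 peak at 47.6% (CI 45.3 to 49.8).

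**Figure D3:**
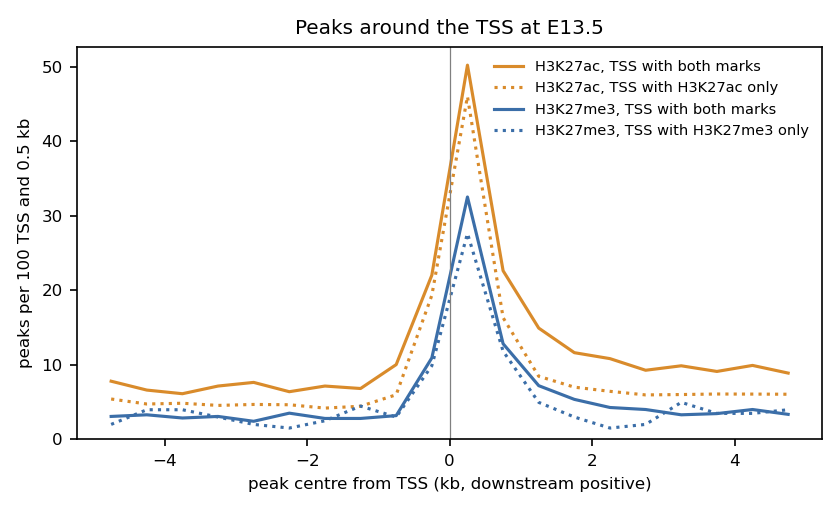
Peak centres per 100 TSS in bins of 0.5 kb (vertical axis) by distance from the TSS in the direction of transcription (horizontal axis, kb), for TSS with both marks (solid) and TSS with a single mark (dotted). All 4 curves are highest in the first bin downstream, at 50.2 for H3K27ac and 32.5 for H3K27me3 at TSS with both marks.

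Genes of CR neurons were mostly acetylated, and 4 of 17 had both marks. Of 9 markers of CR neurons, all had H3K27ac, against 60.9% of all TSS and 14 of 16 cortical progenitor genes. Trp73, Ebf3 and Ebf2 also had H3K27me3 (both marks at 3 of 9, against 8.39% of all TSS). Trp73 encodes a p53 family factor that CR neurons need to survive. It had an H3K27ac peak of 782 bp across its TSS and an H3K27me3 peak of 116 bp, the narrowest width in the list. The H3K27me3 peak lay upstream, 1925 bp from the H3K27ac peak. Ebf3, a helix-loop-helix factor related to Ebf2, had an H3K27ac peak of 625 bp centred 11 bp from the TSS, with H3K27me3 peaks of 205 and 176 bp fully inside it. Its promoter was the only 1 of the 17 where the marks overlapped, and is the first sequence above. Ebf2, the gene that the transgene follows, had 147 bp of H3K27ac centred at -1275 bp from the TSS and 184 bp of H3K27me3 centred at -2768 bp, with a gap of 1327 bp.

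The other CR markers had H3K27ac only. Reln, which encodes Reelin, had a single peak of 126 bp, the narrowest width in that list, centred at -1453 bp from its TSS. Tbr1, a T-box factor of early cortical neurons, had 755 bp downstream of the TSS. The LIM factor genes Lhx5 and Lhx1 had 5 and 3 H3K27ac peaks. Calb2, which encodes calretinin, had 2 peaks covering 412 bp, and Cdkn1a, which encodes the cell cycle inhibitor p21, had 134 bp. Thus the CR markers ranged from single narrow peaks to several peaks across the promoter.

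Of 8 further CR genes of layer 1, Slit1 had both marks (1 of 8, against 8.39% of all TSS) and Ppp2r2c had H3K27me3 only. Slit1 encodes a secreted guidance ligand. Its H3K27me3 peak of 207 bp, 441 bp downstream of the TSS, lay 162 bp from the nearer of 2 H3K27ac peaks of 131 and 189 bp. Ppp2r2c encodes a regulatory subunit of protein phosphatase 2A. It had H3K27me3 peaks of 156 and 116 bp and no H3K27ac peak within 5 kb, whereas it had H3K27ac only at E11.5 and E15.5 in Ebf2-EGFP+ cells. Dnm3, Nhlh2, Chst8, Jph3 and Sncb had H3K27ac only, over 154 to 729 bp, and Brinp1 had neither mark. Of the 4 CR genes with both marks at E13.5, all 4 had H3K27me3 only in E11.5 Ebf2-EGFP- cells and H3K27ac only in E11.5 Ebf2-EGFP+ cells. These states were at 44.7% and 46.4% of all TSS, and at 70.9% and 65.8% of the 1840 TSS with both marks. Lhx5, Lhx1, Cdkn1a, Jph3 and Ppp2r2c, without both marks at E13.5, had the same states in those cells. Trp73 alone of the 4 genes with both marks at E13.5 had both again at E15.5. Within 1 kb of the TSS Ebf3 alone of the 9 CR markers had both, against 4.36% of all TSS. In that window Trp73 had H3K27ac only, and Ebf2, Tbr1, Reln, Nhlh2 and Jph3 had neither mark. When any annotated transcript start was counted, Ppp2r2c and Chst8 had both marks, which made 3 of the 8 genes of layer 1. The share of all TSS with both was then 12.3%. Without peaks at the narrowest width, Trp73 had H3K27ac only and Reln neither mark.

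**Figure D4:**
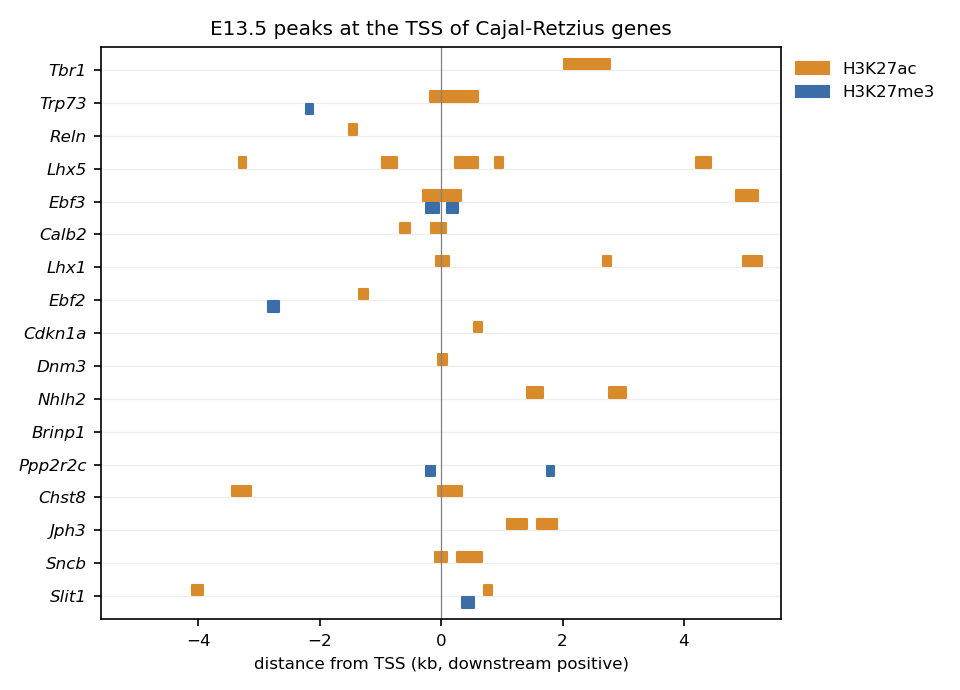
E13.5 peaks of H3K27ac (orange, above the line) and H3K27me3 (blue, below) at the TSS of 17 CR genes, drawn to scale by distance from the TSS in the direction of transcription (kb). The marks overlap at Ebf3, lie apart at Trp73, Ebf2 and Slit1, and Ppp2r2c has H3K27me3 only.

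Genes of other neuronal and progenitor classes had both marks near or above the 8.39% of all TSS, in counts of 1 or 2 per list. Both were at 1 of 16 pan-neuronal genes (Elavl3), at 1 of 14 subplate and deep-layer genes (Cplx3), at 2 of 16 cortical progenitor genes (Pax6 and Emx2), and at 2 of 11 upper-layer genes (Pou3f3 and Neurod6). Within 1 kb of the TSS none of the pan-neuronal, progenitor and upper-layer genes had both, against 4.36% of all TSS. Cplx3 still had both. Elavl3 had 3 H3K27me3 peaks over 413 bp, of which 269 bp were shared with H3K27ac. Pou3f3, a POU factor of upper-layer neurons, had 4 H3K27ac peaks over 1448 bp and 2 H3K27me3 peaks over 274 bp. At Pax6 the marks were 5 bp apart, and at Emx2 132 bp apart. H3K27ac was at 11 of 16 pan-neuronal genes, against 60.9% of all TSS. Snap25, Stmn2, Gap43, Syn1 and Dcx, all active in neurons, had neither mark within 5 kb.

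H3K27ac was also found at markers of cells that the sort was not meant to hold, at shares on either side of that of all TSS. It was at 6 of 8 endothelial, 6 of 8 microglia and leukocyte, 5 of 9 meningeal and mesenchymal and 3 of 8 erythroid markers, against 60.9% of all TSS. In E11.5 Ebf2-EGFP+ cells the counts were 3, 2, 3 and 0, against 49.9% of all TSS. In E15.5 Ebf2-EGFP+ cells they were 1, 2, 2 and 1, against 52.3%. Pan-neuronal genes had H3K27ac at 10 and 14 of 16 in those 2 groups. At E13.5 no H3K27ac peak was near Kdr and Pecam1, Ptprc and Cx3cr1, Col3a1, Dcn, Lum and Twist1, or Hbb-bt, Hbb-bs, Gata1 and Alas2 of these lists. Each of the first 3 lists had both marks at 1 gene, namely Esam, Trem2 and Foxc1, and the erythroid list at none, against 8.39% of all TSS. The part of other cell types in the co-marked sites was not tested.

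Families of transcription factors, and factors of other regions and lineages, often had both marks. Across 10 such lists, 79 of 196 genes had both (40.3%, CI 33.7 to 47.3), against 8.39% of all TSS. Of the 79, 53 had overlapping peaks, against 59.3% of all TSS with both marks. The families also hold factors of the cortex and of CR neurons, such as Pax6, Ebf2, Ebf3 and Zic2. The lists overlap each other in membership, and were chosen with earlier results of these data known, so they describe where both marks lay and do not test it. Pax genes had both at 6 of 9, Hox genes at 24 of 39, hindbrain and spinal cord factors at 13 of 25 and factors of non-neural lineages at 18 of 42. Fox genes had both at 15 of 44, T-box genes at 6 of 17, Sox genes at 6 of 19, LIM homeodomain genes at 2 of 12 and Zic genes at 1 of 5. Within 1 kb of the TSS the counts were 9 of 39 Hox genes, 7 of 25 hindbrain and spinal cord factors and 2 of 9 Pax genes, against 4.36% of all TSS. With the widest H3K27ac peaks only they were 7, 6 and 1, against 2.28% of all TSS.

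Hox genes set position along the trunk and hindbrain and are silent in the cortex. At E13.5 H3K27ac was at 38 of 39 of them, against 60.9% of all TSS, and none had H3K27me3 only. In E11.5 Ebf2-EGFP+ cells H3K27ac was at 15 of the 39, against 49.9% of all TSS. In E15.5 Ebf2-EGFP+ cells it was at 13, against 52.3%. Both marks were at E13.5 at 7 of 11 Hoxa, 7 of 10 Hoxb, 5 of 9 Hoxc and 5 of 9 Hoxd genes, from 7, 8, 5 and 5 distinct H3K27me3 peaks. At Hoxa10 and Hoxa11 the same H3K27me3 peak of 402 bp shared 400 bp with H3K27ac. Hoxb2 had 628 bp of H3K27me3 in 3 peaks, of which 158 bp were shared. In E15.5 Ebf2-EGFP+ cells, where 0.752% of all TSS had both marks, 7 Hox genes had both. In E11.5 Ebf2-EGFP- cells H3K27me3 was at 28 of the 39 genes, against 48.2% of all TSS. The short H3K27ac list of those cells marked 4.17% of all TSS and no Hox gene.

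Factors of the hindbrain and spinal cord followed. Dbx1, a homeobox factor of spinal interneurons, had 538 bp of H3K27me3 in 3 peaks and shared 478 bp with H3K27ac. Tlx1 had 392 bp and shared 188 bp. Lmx1b, a LIM factor of the hindbrain, had 365 bp, with the marks 189 bp apart. Pax2, a paired box factor of the midbrain boundary, had 284 bp and shared 39 bp. Among the factors of non-neural lineages, Foxf1 of the lung and gut mesenchyme had 840 bp of H3K27me3 and a single H3K27ac peak of 135 bp, which lay 100 bp away. Foxc1 of the meninges and mesoderm had 668 bp and shared 456 bp, and the intestinal factor Cdx1 had 503 bp, all under H3K27ac. The extent of the marks thus differed between genes, from H3K27me3 far longer than H3K27ac at Foxf1 to H3K27me3 fully covered at Cdx1.

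GABAergic and ventral forebrain genes had both marks at 5 of 14, against 8.39% of all TSS. Gsx1, Slc32a1, Dlx6 and Nkx2-1 were among them, and overlapping peaks were found at all 5, against 59.3% of all TSS with both marks. At Slc32a1, which encodes the vesicular GABA transporter, all 257 bp of H3K27me3 were under H3K27ac, and at Dlx6 all 231 bp. At Zic2, which is not among these 14 genes, all 207 bp of H3K27me3 lay inside an H3K27ac peak of 1266 bp. Gad1 and Gsx2 had neither mark.

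Signaling genes followed, with shares that differed between families. Wnt ligand genes had both marks at 9 of 19 (47.4%), against 8.39% of all TSS. Wnt10b had 4 H3K27me3 peaks over 686 bp and shared 318 bp, and Wnt11 had 391 bp and shared 272 bp. Notch pathway genes had both at 8 of 22 (36.4%), among them the ligand genes Dll1, Dll4 and Jag2, the receptor gene Notch3 and the effector gene Hes6. Fgf ligand genes had both at 4 of 22 (Fgf3, Fgf8, Fgf9 and Fgf15) and Bmp ligand genes at 2 of 11 (18.2% each). Guidance ligands and receptors had both at 11 of 71, among them Unc5a, Unc5b, Plxnd1 and Efna5. Unc5a had 265 bp of H3K27me3 and shared 54 bp, and at Efna5 the marks shared 4 bp.

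Genes for subunits of PRC1, which reads H3K27me3, had both at 5 of 16 (31.2%), among them Bmi1, Phc1 and Cbx6, against 8.39% of all TSS. H3K27me3 at Cbx6 lay fully under H3K27ac, over 250 bp. Of 16 genes for writers and erasers of H3K27 marks, Crebbp alone had both (6.25%, near the share of all TSS). Crebbp encodes CBP, which acetylates this lysine, and its 289 bp of H3K27me3 lay fully under H3K27ac. Clustered protocadherin genes, which give neurons their surface identity, had both at 11 of 57 (19.3%) and drew on 10 distinct H3K27me3 peaks. Within 1 kb of the TSS none of the 57 had both, against 4.36% of all TSS. With the widest H3K27ac peaks only, none had both either, against 2.28% of all TSS. Potassium channel genes had both at 15 of 92 (16.3%), with H3K27me3 only at Kcnj10, Kcnh7 and Kcnk6.

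Broadly expressed genes and sensory receptor families had both marks near or below the 8.39% of all TSS. Both were at none of 12 housekeeping genes and none of 36 mitochondrial complex I genes, at 5 of 76 cytosolic ribosomal protein genes, 3 of 66 replication-dependent histone genes and 2 of 30 cell cycle genes. The Zfp genes had both at 26 of 391, glutamate and GABA receptor genes at 3 of 47 and keratins at 3 of 49. Olfactory receptors had both at 4 of 1093 and vomeronasal receptors at 0 of 327, where H3K27ac itself was at 121 and 23 TSS.

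**Figure D5:**
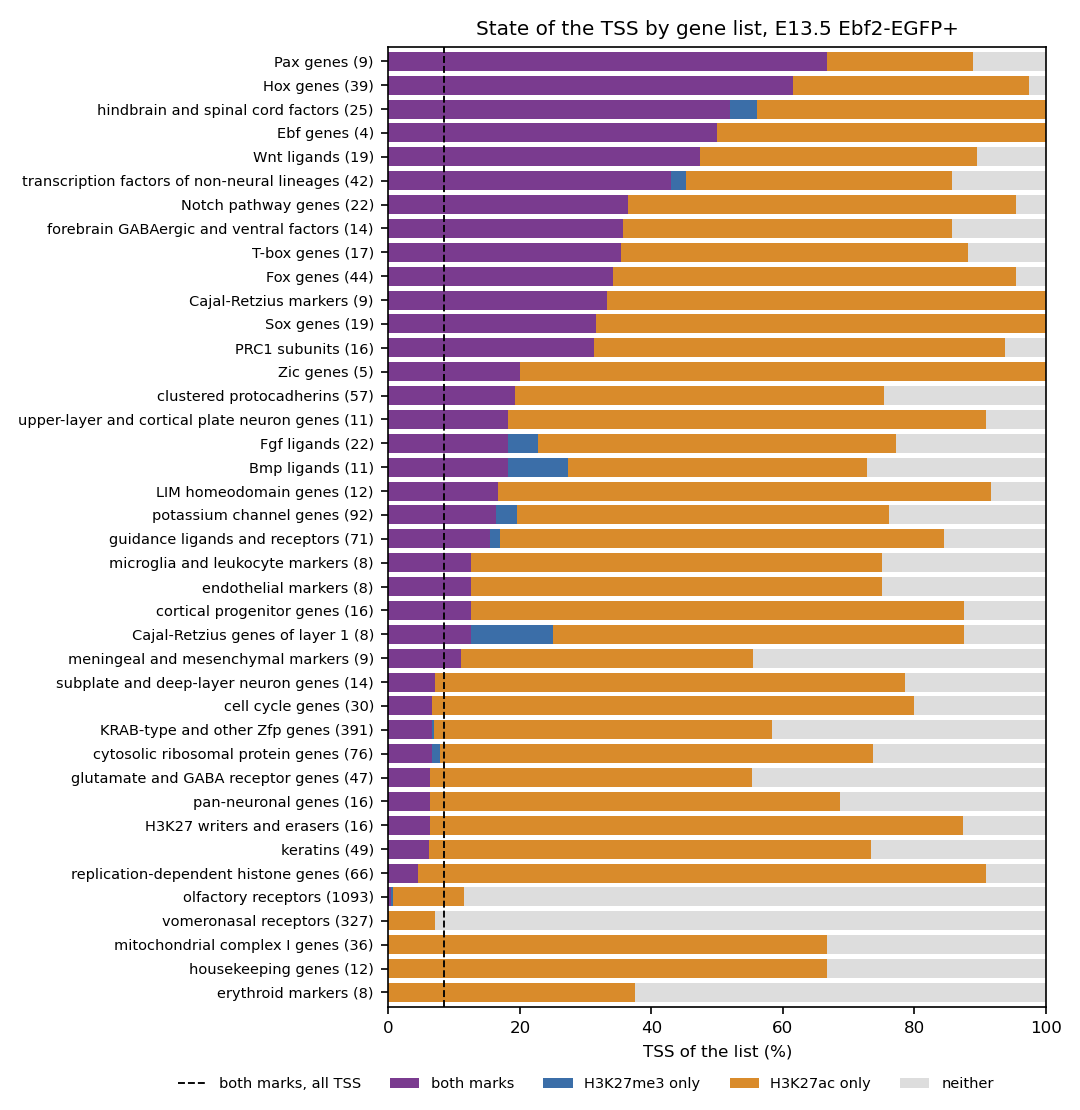
State of the TSS in E13.5 Ebf2-EGFP+ cells for 40 gene lists, with the number of genes in parentheses. Bars show the percentage of TSS with both marks, H3K27me3 only, H3K27ac only or neither, and the dashed line the 8.39% of all TSS with both. Pax genes (6 of 9) and Hox genes (24 of 39) have the longest share with both marks.

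Ranked by H3K27me3 cover, the first TSS with both marks were predicted genes in repeats. The 10 with most H3K27me3 within 5 kb were Gm genes, of which 8 lay in the chromosome 9 cluster and 2 (Gm10800 and Gm10801) on chromosome 2, with 1826 to 2940 bp of H3K27me3 each. They share peaks with each other and their GC content was 33.2% to 37.8%. With peaks that were mostly repeat left out, a ranking made after the values were seen, Fcgr3 came first with 1516 bp of H3K27me3, all under H3K27ac. It was followed by Tmem125 (1016 bp), H2-Q1 (1015 bp) and AW822073 (987 bp), then Tmem200b, Zfpm1, Irx2 and Foxf1. Zfpm1 encodes the GATA cofactor FOG1, and Irx2 a homeobox factor of early patterning. At Hspa1b, a heat shock gene that was 1 of the 10 with most shared bases, 644 bp had both marks. Hspa1b and Tmem125 each had both marks in all 3 other cell groups too.

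The 203 TSS with H3K27me3 only carried little of it. The 10 with most H3K27me3 had 272 to 585 bp, and were Tcfl5, Irx1, Gsc, Samd11, Dnase2a, Ltbp4, Rsbn1, Ptger3, Fam234a and Ppp2r2c. Irx1, a homeobox factor, had 527 bp and Gsc, which encodes Goosecoid of the embryonic organizer, had 419 bp. Both had H3K27me3 only in E11.5 Ebf2-EGFP- cells and H3K27ac only in E11.5 Ebf2-EGFP+ cells. Dnase2a, Ptger3, Fam234a and Ppp2r2c of the same 10 had these states as well. The states were at 47.8% and 46.3% of the 203 TSS, each group counted on its own, against 44.7% and 46.4% of all TSS. En1 was the single hindbrain and spinal cord factor with H3K27me3 only.

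The same 1840 TSS were compared with the lists of the other cell groups, each called from its own libraries. In E11.5 Ebf2-EGFP- cells 77.3% of them had H3K27me3, against 48.2% of all TSS and 63.0% of TSS with H3K27ac only at E13.5. In E11.5 Ebf2-EGFP+ cells 74.0% had H3K27ac (49.9% of all TSS) and 9.95% had H3K27me3 (4.92% of all). In E15.5 Ebf2-EGFP+ cells 68.6% had H3K27ac (52.3% of all) and 2.88% had H3K27me3 (1.06% of all). At E15.5 H3K27ac was thus found about as often as at TSS with H3K27ac only at E13.5, where it was 67.5%. Peaks were also compared base by base. Of the 2582 overlapping H3K27me3 peaks, 38.3% met an H3K27me3 peak of E11.5 Ebf2-EGFP- cells, 4.61% one of E11.5 Ebf2-EGFP+ cells and 4.03% one of E15.5 Ebf2-EGFP+ cells. For the 4139 other H3K27me3 peaks the shares were 10.7%, 1.23% and 0.362%.

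Few of the E13.5 TSS with both marks had both in another group, at shares above those of all TSS. Both marks were at 3.42% of all TSS in E11.5 Ebf2-EGFP- cells, 3.56% in E11.5 Ebf2-EGFP+ cells and 0.752% in E15.5 Ebf2-EGFP+ cells. Of the E13.5 TSS with both, 118 (6.41%) had both in E11.5 Ebf2-EGFP- cells, which was 15.7% of the 750 such TSS there. In E11.5 Ebf2-EGFP+ cells 150 (8.15%) had both, or 19.2% of 780, and in E15.5 Ebf2-EGFP+ cells 43 (2.34%) had both, or 26.1% of 165. The most frequent state of the 1840 TSS was H3K27me3 only in E11.5 Ebf2-EGFP- cells (70.9%), and H3K27ac only in the Ebf2-EGFP+ cells of E11.5 (65.8%) and E15.5 (66.3%), each group counted on its own. The lists differ in length and the E11.5 Ebf2-EGFP- H3K27ac list, from 1 ChIP library, held 1386 peaks, so stage and list length cannot be told apart.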

How the data were processed

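H3K27ac (antibody Ab4729) and H3K27me3 (Ab6002) ChIP-seq libraries were made from sorted cortical cells. Per the labels and methods of the study, Bowtie 1.1.2 on Galaxy placed the reads on mm10 with at most 3 mismatches, and MACS called the peaks at a p cutoff of 1e-05. The MACS version, the use of the input as control and the pooling of replicates are not given in the sources used here. The authors deposited 8 peak lists, 1 per mark and cell group, in which the deposited score of each peak was 0. Depth is thus unknown, and only peak positions were used. Peaks on chrM were left out of the comparisons. Protein-coding TSS were taken from GENCODE M21, 1 per gene, and sequences from GRCm38.p6. Overlap required 1 bp, TSS marks a peak within 5 kb, and promoters reached 1 kb. Repeats were soft-masked bases. Counts were made in Python 3.11.15 with numpy 2.4.6, figures in matplotlib 3.10.9, and Wilson intervals at 95%. The counting recovered 4200 of 4200 states of simulated TSS. The members and gene lists were chosen with earlier results of these data known. Genes were named by rule, namely the 10 TSS with both marks and most H3K27me3, the 10 with H3K27me3 only, the 10 with most shared bases, all 17 CR genes, up to 4 genes with both marks per further list, and 5 far pairs of peaks. Genes named outside this rule, such as those behind small counts, were chosen after their values were seen. The alternatives changed the chromosomes, merging, H3K27ac list length, repeats, overlap, TSS window, TSS annotation and promoter size. A few genes of the lists are counted but not reported here by name.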

Additional observations from a re-analysis of the deposited data

Results flagged for a closer look

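The E13.5 H3K27ac list held 4 peaks on the mitochondrial chromosome, which carries no histones and was used in no comparison. The E13.5 H3K27me3 list held 0. Among the other lists, H3K27ac at E15.5 held 6, H3K27me3 at E15.5 held 9, H3K27me3 in E11.5 Ebf2-EGFP- cells held 1, and the others held 0.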

How the results depend on the processing

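No result has a replicate error, because each mark had a single list per cell group and peak height and depth were not in it. No paired analysis was possible because no comparison rests on a test over replicates, and leaving out a replicate was not possible for the same reason. All shares move with where each list was cut.

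As reported, 38.4% of H3K27me3 peaks overlapped H3K27ac, 8.39% of TSS had both marks, 90.1% of TSS with H3K27me3 had H3K27ac, the peaks overlapped at 59.3% of TSS with both, and 27.8% of overlapping H3K27me3 peaks were in promoters. With only the widest H3K27ac peaks these became 8.72%, 2.28%, 24.5%, 62.1% and 39.1%. A TSS window of 1 kb gave 4.36% with both, 81.6% with H3K27ac and 74.9% overlapping, and counting any transcript start gave 12.3%, 94.1% and 53.7%. A reciprocal overlap of 50% gave 16.0% of peaks, 23.3% of TSS and a promoter share of 24.3%. The promoter share was 30.7% without peaks of mostly repeat bases and 42.0% with promoters of 5 kb. Chromosomes 1 to 19 alone gave 8.78% of TSS with both, and merging peaks within 1 kb gave 62.0% overlapping. Of the alternatives chosen after seeing the data, leaving out clusters gave 36.8% overlapping, and leaving out the narrowest peaks gave 39.9% overlapping and 7.33% with both. The other values of these 5 results moved by less than their intervals. Of 129 named genes, 56 kept their state with only the widest H3K27ac peaks, 81 with a window of 1 kb and 117 to 129 under the other alternatives.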
